A study of Mus musculus with 58 samples.

Results

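Complex I (NADH:ubiquinone oxidoreductase) is the entry point for NADH electrons into the mitochondrial respiratory chain, and its nuclear genes carry symbols that begin with Nduf. The genes described here were found by symbol: every gene on a probe set annotated to 1 gene whose symbol began with Nduf followed by a, b, c, s, v, ab or af, with probe sets averaged per symbol. This gave 43 of the 18820 genes measured. They were sorted by textbook role into 34 subunits of complex I, 7 assembly factors (Ndufaf1 to Ndufaf7) and 2 genes that carry the family name but are not subunits of complex I, Ndufa4 and Ndufa4l2. Other genes of the complex, among them its mitochondrially encoded subunits, were not analysed here.

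Expression was measured on 58 microarrays (Affymetrix, RMA-normalised log2 levels) from m. extensor digitorum longus (EDL, a fast muscle), m. soleus (SOL, a slow muscle) and heart (HRT). The mice were male CD2F1 hybrids (BALB/c x DBA/2), 6 to 8 weeks old and individually housed. Tumour bearing mice received murine C26 colon adenocarcinoma cells under the skin of the right inguinal flank, and control mice received the salt solution alone. Whole-body vibration training (WBV) on a platform at 45 Hz and 1 g was given for 15 min daily, 7 days a week, from day 1, and tissues were taken at day 19. The 4 groups were thus sham injected without training (C), sham injected with training (C+WBV), tumour bearing without training (T) and tumour bearing with training (T+WBV). In EDL and SOL there were 6 arrays in C, 6 in C+WBV, 6 in T and 5 in T+WBV, each from 1 mouse, and HRT had 3 arrays in each group from a subset of the same mice. The tumour was a graft of 1 cell line at a site away from these muscles, so the comparisons concern this graft in this hybrid only.

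Complex I is L-shaped. Its matrix arm oxidises NADH in the dehydrogenase part and passes electrons along iron-sulphur clusters to the quinone part, and its membrane arm pumps protons. A small set of core subunits carries out catalysis, many accessory subunits surround and stabilise them, and assembly factors build the complex without remaining in it. Heart and slow muscle fibres are rich in mitochondria, and fast glycolytic fibres hold fewer.

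Array medians lay between 4.52 and 4.60 on the log2 scale, and the tissue labels were borne out by marker genes. The mean level of 7 heart markers was 12.13 in the C hearts against 5.11 in EDL and 4.90 in SOL, and that of 8 slow fibre markers was 11.97 in SOL against 7.84 in EDL. All 43 genes lay above the median level of all genes, and none was removed by a filter. Differences were tested with limma within each tissue, p-values were Benjamini-Hochberg adjusted over all genes, and a gene is called higher or lower here when its adjusted p was under 0.01. Folds are given as log2 differences, so a negative value is a lower signal. On these bulk tissues, fewer cells or fibres of a kind and less RNA per cell cannot be told apart.

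The effect of the tumour was asked first in mice that did not train. In EDL nearly all measured genes of the complex were lower in T than in C. Of the 43 genes, 39 were called lower and 0 higher, where 11.6% of all genes were called lower and 10.7% higher. By class these were 33 of the 34 subunits, 4 of the 7 assembly factors, and both Ndufa4 and Ndufa4l2. The median log2 fold change of the 43 genes was -0.58, against -0.03 over all genes, and 42 of the 43 values lay below 0 (54.9% of all genes). In 32 of the 43 every T array lay below every C array, which held for 8.39% of all genes. Because all members lay above the median level, the share among genes above that level is also of use: 20.6% of those were called lower.

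**Figure D1:**
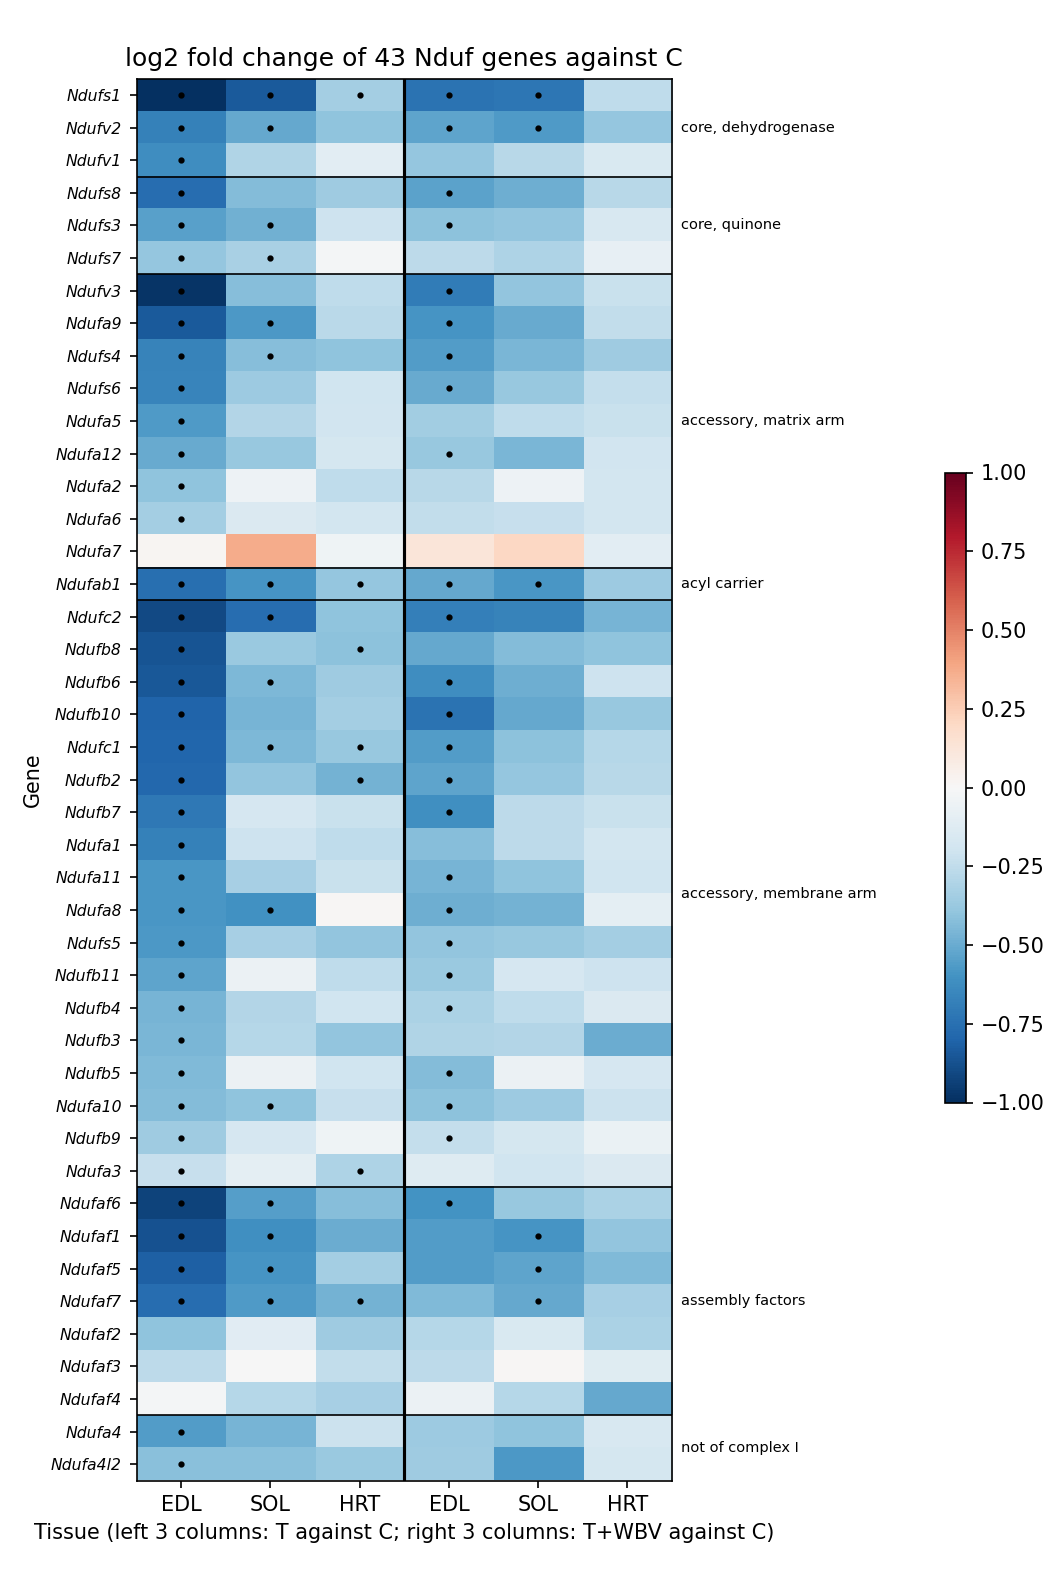
Log2 fold changes (colour scale, blue lower) of the 43 genes in T against C (left 3 columns) and T+WBV against C (right 3 columns) in EDL, SOL and HRT. Dots mark an adjusted p under 0.01 (limma), which 39 genes reached in EDL, 16 in SOL and 7 in HRT in T against C, all of them lower. Both comparisons share the C mice.

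The core subunits of the matrix arm were lower in EDL without exception, with log2 fold changes from -1.001 to -0.38. Ndufs1, the large iron-sulphur subunit of the dehydrogenase part, changed most of all 43 genes. Its log2 level in C ranged from 10.16 to 10.44 (median 10.29), while in T it ranged from 8.62 to 9.99 (median 9.29). No T array reached the lowest C array. The difference was -1.001 (SE 0.15, adjusted p = 2.57e-05, limma), or 50.0% of the C signal. Its partners in the dehydrogenase part were also lower, Ndufv2 by -0.67 (SE 0.10) and the NADH and flavin binding subunit Ndufv1 by -0.62 (SE 0.12). In the quinone part Ndufs8 differed by -0.76 and Ndufs3 by -0.54, and Ndufs7, which holds the last iron-sulphur cluster before ubiquinone, by -0.38 (SE 0.08, adjusted p = 0.000299).

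Among the accessory subunits, 8 of 9 in the matrix arm and 18 of 18 in the membrane arm were called lower in EDL. Ndufv3, a small subunit of the dehydrogenase part, ranged from 8.18 to 8.46 in C (median 8.35) and from 7.01 to 8.07 in T (median 7.32), a difference of -0.98 (SE 0.14, adjusted p = 1.22e-05). The groups did not overlap. Ndufc2 of the membrane arm differed by -0.91 (SE 0.13), and Ndufb8, also of the membrane arm, by -0.86 (SE 0.14). The smallest difference called was that of Ndufa3, at -0.23 (SE 0.07, adjusted p = 0.00978). Ndufab1, the mitochondrial acyl carrier protein that sits in both arms and also serves fatty acid synthesis, differed by -0.76 (SE 0.10, adjusted p = 5.85e-06).

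The threshold split the assembly factors in EDL. Ndufaf6 differed by -0.92 (SE 0.13), Ndufaf1, which helps build the membrane arm, by -0.87 (SE 0.14), Ndufaf5, which hydroxylates an arginine of Ndufs7, by -0.82 (SE 0.15), and Ndufaf7, a protein arginine methyltransferase, by -0.76 (SE 0.13). All 4 were called. Ndufaf2, a factor of late assembly, differed by -0.40 (adjusted p = 0.0152) and Ndufaf3 by -0.26 (adjusted p = 0.0205), both short of the threshold. Ndufaf4, the partner of Ndufaf3 in assembly of the quinone part, stood at -0.02 (SE 0.09, adjusted p = 0.894).

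In SOL 16 of the 43 genes were called lower in T and 0 higher, against 8.66% and 5.06% of all genes. They were 12 of the 34 subunits and 4 of the 7 assembly factors. Among genes above the median level, 15% were called lower. The median log2 fold change was -0.38, against -0.01 over all genes, and 42 of the 43 values lay below 0 (51.4% of all genes). All 16 had also been called in EDL, as had 68.8% of all genes called lower in SOL. In 10 genes every T array lay below every C array, against 6.68% of all genes. Without any 1 of C replicates 1, 3 and 4 and T replicate 5, the count of calls was 10, and without T replicate 3 it was 21. The share of all genes called in those fits is not given here.

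Ndufs1 again had the largest difference in SOL. It ranged from 10.14 to 10.60 in C (median 10.33) and from 8.75 to 10.13 in T (median 9.51), without overlap, a difference of -0.84 (SE 0.16, adjusted p = 0.000608). Among the subunits Ndufc2 followed with -0.76 (SE 0.16) and Ndufa8 of the membrane arm with -0.61 (SE 0.15). The 4 assembly factors called in EDL were the 4 called in SOL: Ndufaf1 differed by -0.62, Ndufaf5 by -0.59, Ndufaf7 by -0.56 and Ndufaf6 by -0.55. Ndufaf3 had a log2 fold change of 0.00 to 2 decimals (-0.0018, SE 0.12), and Ndufaf2 one of -0.11 (SE 0.14).

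The T soleus arrays were more spread than the C arrays. The mean log2 difference of the 34 subunits from the C mean was -0.34 ± 0.25 (SD, n = 6) in T, and in C the SD was 0.06 (n = 6). T replicates 1 and 3 stood at -0.04 and -0.07, within the C range of -0.12 to 0.04, and the other 4 T arrays stood between -0.67 and -0.36. The EDL of T replicate 1 stood at -0.57, and 34 of 34 subunits lay below the C mean there.

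**Figure D2:**
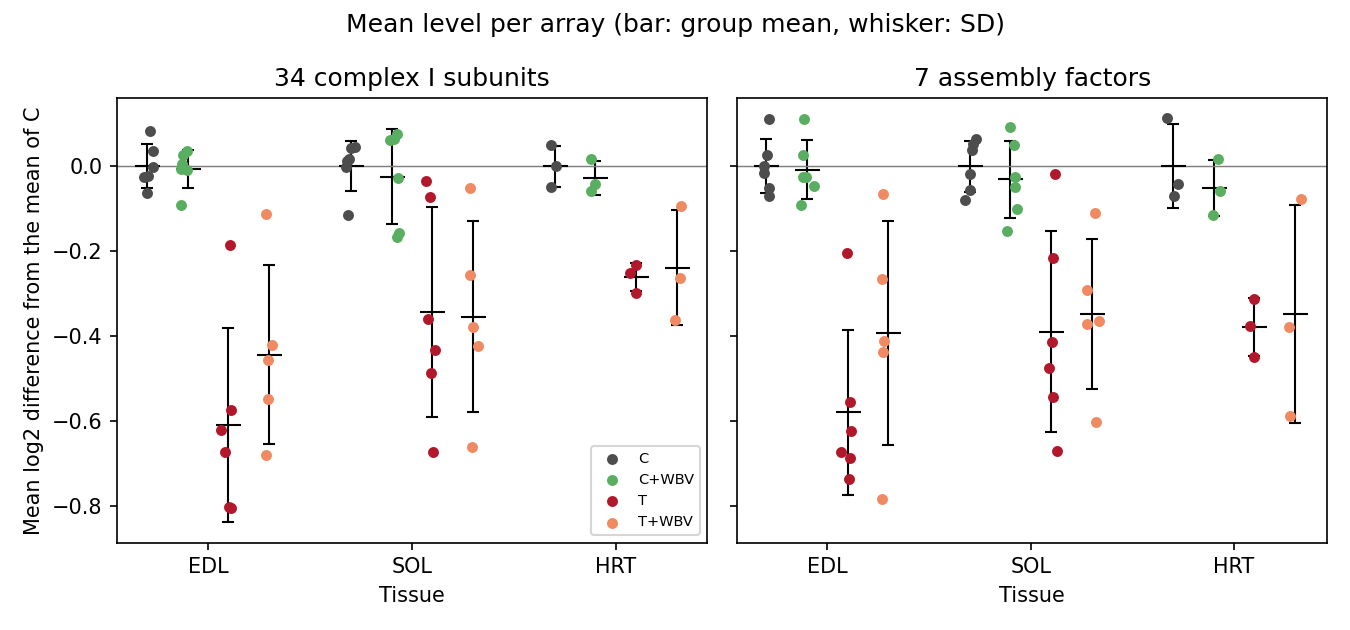
Mean log2 difference from the C mean of the same tissue, per array, for the 34 subunits (left) and the 7 assembly factors (right), with group means and SD. In EDL the T arrays lie between -0.80 and -0.18 for the subunits, and in SOL 2 of 6 T arrays lie within the range of C.

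In HRT 7 of the 43 genes were called lower in T and 0 higher, against 3.04% and 2.70% of all genes. They were Ndufb2, Ndufaf7, Ndufb8, Ndufab1, Ndufc1, Ndufs1 and Ndufa3. Among genes above the median level, 5.43% were called lower. The median log2 fold change was -0.27, and 42 of 43 values lay below 0 (49.2% of all genes). In 36 of the 43 genes all 3 T hearts lay below all 3 C hearts, where 16.3% of all genes did so, and these 36 included all 7 assembly factors.

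Ndufb2, an accessory subunit of the membrane arm, was measured at 8.86, 8.91 and 8.93 in the C hearts and at 8.43, 8.45 and 8.40 in the T hearts. The difference was -0.47 (SE 0.07, adjusted p = 0.000945), or 71.9% of the C signal. Ndufs1 was at 10.91, 10.90 and 10.93 in C and at 10.51, 10.61 and 10.60 in T, a difference of -0.34 (SE 0.07, adjusted p = 0.00615). The C and T hearts did not overlap for either gene. Ndufb8 differed by -0.41 and Ndufab1 by -0.38. Ndufaf1 had the largest difference of the 43 genes in HRT, at -0.50 (SE 0.13) but missed the threshold (adjusted p = 0.0253).

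The heart calls depended on few arrays. When any 1 of the 6 C and T hearts was left out, 2 or 3 genes were called in place of 7, and when all 58 arrays shared 1 fit the count was 0. Leaving out 1 of 3 hearts in a group weakens the test for every gene. The counts therefore do not show that these genes were more fragile than others.

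**Figure D3:**
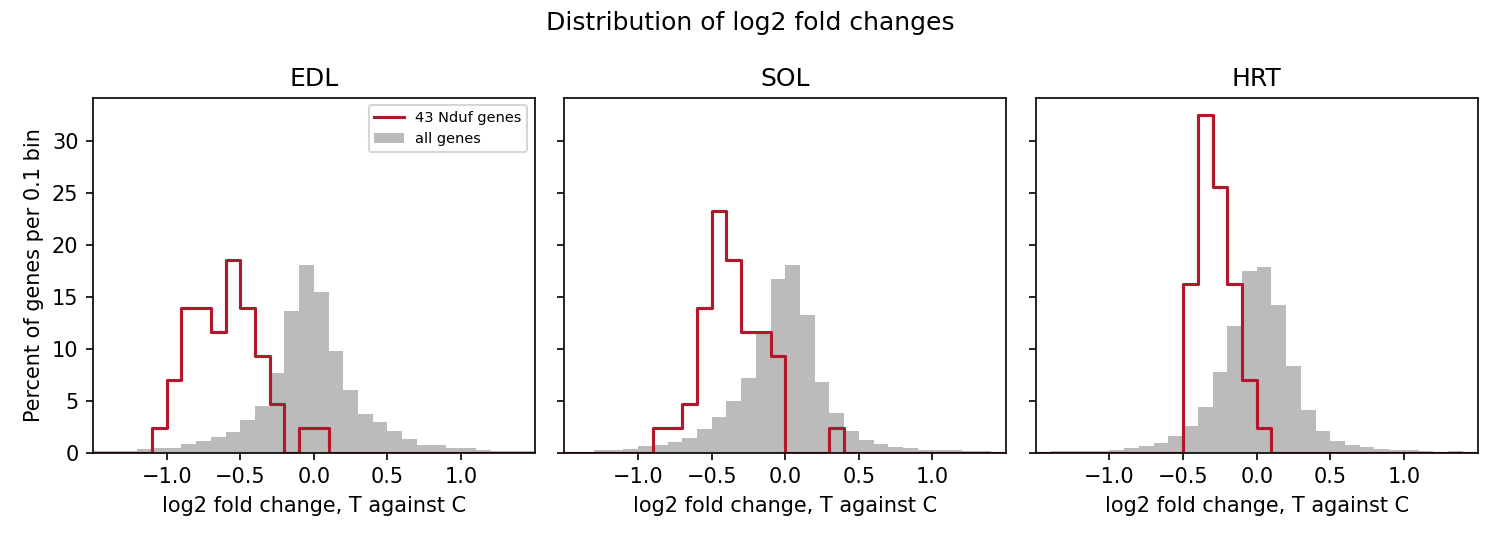
Percent of genes per 0.1-wide bin of log2 fold change in T against C, for all genes (grey bars) and the 43 Nduf genes (red line). The 43 genes lie to the left of 0 apart from 1 gene in each tissue, with medians of -0.58 in EDL, -0.38 in SOL and -0.27 in HRT.

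The difference between tissues was itself tested, in a fit to all 58 arrays that treated the mouse as a random block. The difference of T from C was lower in EDL than in SOL in 41 of 43 genes and lower in EDL than in HRT in 40 of 43, where 49.6% and 53.9% of all genes had that order. Between SOL and EDL 0 genes were called (0.744% of all genes were called higher and 1.28% lower), and 20 had an unadjusted p under 0.05, all with the smaller fall in SOL (8.20% of all genes). The smallest adjusted p was 0.0155 for Ndufb11, a membrane arm subunit, which differed from C by -0.53 in EDL and by -0.06 in SOL. Between HRT and EDL, 1 gene was called (1.79% of all genes were called in that direction), and 23 had an unadjusted p under 0.05 (11.1%). This was Ndufb9, a membrane arm subunit that binds the acyl carrier protein. It differed from C by -0.36 (SE 0.06) in EDL and by -0.04 (SE 0.05) in HRT, a gap of 0.32 (SE 0.08, adjusted p = 0.00741). That call was lost when any of 10 of the 12 C and T mice was left out. Between HRT and SOL 0 genes were called (1.11% of all genes were called higher and 0.574% lower), with 3 and 1 at an unadjusted p under 0.05 (9.78% and 6.27%).

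The T fall in 4 genes was called in all 3 tissues, which held for 240 (1.28%) of all genes: Ndufs1, Ndufab1, Ndufc1 and Ndufaf7. Ndufc1, a small membrane arm subunit, differed by -0.79 in EDL, -0.45 in SOL and -0.38 in HRT. Ndufaf7 differed by -0.76, -0.56 and -0.47, and its C hearts (7.38, 7.35 and 7.38) stood clear of the T hearts (6.73, 6.96 and 7.01). A further 4 genes were called lower in no tissue, as were 84.6% of all genes: Ndufaf2, Ndufaf3, Ndufaf4 and Ndufa7. A missed threshold does not show the absence of a fall, and Ndufaf2 differed by -0.40 in EDL and -0.35 in HRT.

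Ndufa7, an accessory subunit of the matrix arm near the quinone part, was the 1 subunit whose value was not below 0 in the muscles. In EDL it ranged from 8.13 to 8.41 in C (median 8.18) and from 7.99 to 8.56 in T (median 8.25). The T mean was 0.02 above the C mean (SE 0.08, adjusted p = 0.874). In SOL it ranged from 7.45 to 8.12 in C (median 7.86) and from 7.89 to 8.86 in T (median 8.03), a difference of 0.37 (SE 0.14, adjusted p = 0.0558). The groups overlapped in both muscles. With all 58 arrays in 1 fit, 1 of the 43 genes was called higher in SOL; no other alternative called one.

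**Figure D4:**
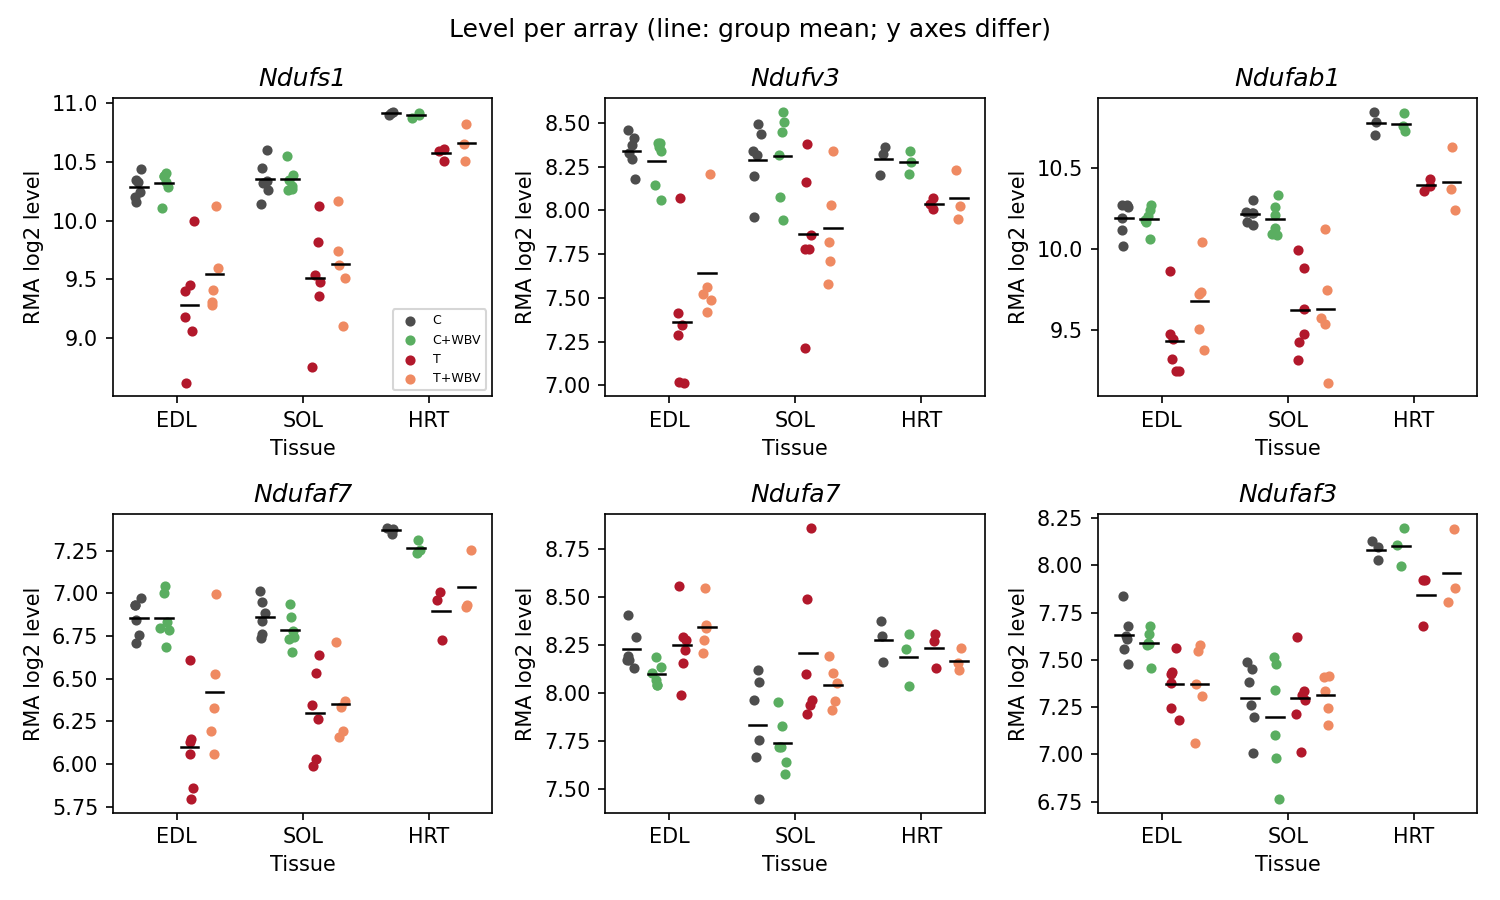
RMA log2 levels of 6 genes on every array, by tissue and group, with group means as lines (the y axes differ between panels). The T arrays of Ndufs1 lie below every C array in each tissue, and those of Ndufa7 overlap the C arrays in each.

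Promoters are shown for genes that bracket these responses, since members that fall together invite a look at the sequence before their starts. RefSeq promoter windows (GRCm38.p6) were found for 38 of the 43 genes, and the 250 bases before each start were searched on both strands for 6 motifs. In the sequences below, capitals mark a match to the loose NRF1 site (GCGC on both sides of 2 free bases, after the site of nuclear respiratory factor 1), AAGGTCA (bound by oestrogen-related receptors), CCGGAAG (the ETS core bound by GABP), GGGCGG (Sp1) or AAGATGGC (YY1). The strict NRF1 site, with AT as the central bases, was also searched and is contained in the loose one. Ndufab1 and Ndufc1 were called lower in all 3 tissues, Ndufv2 in both muscles, and Ndufb2 in EDL and HRT. Ndufa7 was called in none, and of its pair of annotated starts the more upstream one is given.
Ndufab1 (chr7:122101849-122102098, minus strand): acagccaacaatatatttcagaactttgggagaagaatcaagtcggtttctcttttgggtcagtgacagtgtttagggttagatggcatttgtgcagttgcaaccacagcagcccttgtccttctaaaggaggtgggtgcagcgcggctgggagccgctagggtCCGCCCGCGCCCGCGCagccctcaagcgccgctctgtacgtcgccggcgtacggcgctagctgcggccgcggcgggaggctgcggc
Ndufv2 (chr17:66101560-66101809, minus strand): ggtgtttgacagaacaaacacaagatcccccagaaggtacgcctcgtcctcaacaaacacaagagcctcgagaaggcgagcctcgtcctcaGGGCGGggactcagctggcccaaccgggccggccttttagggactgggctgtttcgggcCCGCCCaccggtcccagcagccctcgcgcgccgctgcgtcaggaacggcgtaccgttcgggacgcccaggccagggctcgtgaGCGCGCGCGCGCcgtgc
Ndufb2 (chr6:39592315-39592564, plus strand): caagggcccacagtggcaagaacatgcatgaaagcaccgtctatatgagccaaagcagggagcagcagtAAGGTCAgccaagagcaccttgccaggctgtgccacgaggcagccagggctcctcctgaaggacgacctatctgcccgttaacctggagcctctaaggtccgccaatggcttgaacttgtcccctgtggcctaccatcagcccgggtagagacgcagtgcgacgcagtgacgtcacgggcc
Ndufc1 (chr3:51408956-51409205, minus strand): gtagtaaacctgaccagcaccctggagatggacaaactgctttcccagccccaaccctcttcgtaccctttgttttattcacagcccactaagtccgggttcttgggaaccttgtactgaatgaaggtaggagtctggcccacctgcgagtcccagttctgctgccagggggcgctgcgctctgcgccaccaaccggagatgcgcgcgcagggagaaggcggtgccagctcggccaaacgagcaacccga
Ndufa7 (chr17:33824322-33824571, plus strand): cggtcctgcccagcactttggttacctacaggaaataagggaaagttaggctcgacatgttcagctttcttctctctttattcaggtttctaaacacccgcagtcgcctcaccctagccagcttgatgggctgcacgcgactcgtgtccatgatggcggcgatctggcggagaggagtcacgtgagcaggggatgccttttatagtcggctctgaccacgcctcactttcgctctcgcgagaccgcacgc
The Ndufab1 window held adjoining matches to Sp1 and the loose NRF1 site, the Ndufv2 window held 2 matches to each, those of NRF1 overlapping, and the Ndufb2 window held 1 receptor motif. The Ndufc1 and Ndufa7 windows matched none of the 6, and Ndufc1 was called lower in all 3 tissues and Ndufa7 in none. The loose NRF1 site stood in 10 of the 40 windows of these genes (25.0%), which belong to 9 genes, and in 4.98% of all 32851 windows. Its fixed bases are all G or C, and the windows were not matched for GC content. The part of GC content in these shares was not tested. For the strict site the shares were 5.00% and 0.782%, for the receptor motif 7.50% and 4.08%, for the ETS core 10.0% and 6.91%, and for Sp1 42.5% and 32.7%. YY1 was in 0 of the 40 windows and in 1.56% of all. Of the 38 genes, 16 had no match.

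The 2 genes that carry the family name without belonging to complex I moved with it in EDL. Ndufa4, a subunit of cytochrome c oxidase, ranged from 11.51 to 11.69 in C and from 10.73 to 11.49 in T, a difference of -0.55 (SE 0.10, adjusted p = 8.36e-05). In SOL it differed by -0.46 (adjusted p = 0.0154) and in HRT by -0.22 (adjusted p = 0.022), which did not pass. Ndufa4l2, its hypoxia-inducible relative, differed by -0.42 in EDL (SE 0.10, adjusted p = 0.00125). Its SOL value of -0.41 (adjusted p = 0.0294) and HRT value of -0.37 (adjusted p = 0.0345) fell short of the threshold.

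Tumour bearing mice that trained were compared with C on the same arrays, so these values share the C mice with those above. In EDL 25 genes were called lower in T+WBV than in C and 0 higher (5.69% and 5.37% of all genes), and the median log2 fold change was -0.43. In 18 genes every T+WBV array lay below every C array (3.86% of all genes). In SOL 6 were called lower (2.66% of all genes), namely Ndufv2, Ndufab1, Ndufs1, Ndufaf1, Ndufaf5 and Ndufaf7, with a median of -0.38. In HRT 0 were called (0.473% of all genes), with a median of -0.23 and 30 genes lower at an unadjusted p under 0.05 (11.2%). The intensity-based moderated t-statistic that the methods of the study name also called 0 in HRT.

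Against trained controls the pattern was similar in size. Ndufa7 lay the other way in the muscles, by 0.25 in EDL and 0.30 in SOL. Neither value was called, and both had an unadjusted p under 0.05 (limma), where 14.5% and 10.6% of all genes were higher. Its T+WBV arrays in EDL (8.21 to 8.55) lay above every C+WBV array (8.04 to 8.19), which held for 4.08% of all genes. In EDL 28 genes were called lower in T+WBV than in C+WBV (6.60% of all genes), with a median of -0.44. In SOL 4 were called (1.66%), which were Ndufv2, Ndufab1, Ndufs4 and Ndufs1. In HRT 0 were called (0.478%), with 27 lower at an unadjusted p under 0.05 (10.9%).

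These counts turned on single mice. T+WBV replicate 2, whose body mass at day 19 was 100.9% of its starting value, had the highest mean subunit level of its group in every tissue: -0.11 in EDL, -0.05 in SOL and -0.09 in HRT. Its Ndufs1 in EDL was 10.12, where the other 4 T+WBV arrays read 9.31, 9.60, 9.28 and 9.41. Without that mouse the calls against C were 36 in EDL, 19 in SOL and 23 in HRT, where 17.0%, 8.73% and 8.83% of all genes were then called in either direction. Against C+WBV they were 35, 13 and 20, where 17.6%, 7.73% and 8.63% of all genes were called. Without T+WBV replicate 4 the calls against C were 13 in EDL and 1 in SOL (5.45% and 2.23% of all genes). In SOL 1 was also the count without T+WBV replicate 3 or 5. The share of all genes called without replicate 3 or 5 is not given here.

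Whether training altered the tumour response was asked directly. In T+WBV against T, 0 of the 43 genes were called in any tissue, as were 0 of all genes, and the intensity-based statistic gave 0 as well. In EDL 42 of the 43 values lay above 0 (49.4% of all genes lay below 0), with a median of 0.15, and 7 genes were higher at an unadjusted p under 0.05, against 2.72% of all genes. That median was 0.09 without T+WBV replicate 2 and 0.24 without T replicate 3. The smallest p belonged to Ndufb8, at 0.35 (SE 0.14, adjusted p = 0.868). The mean subunit level in EDL was -0.44 ± 0.21 (SD, n = 5) in T+WBV and -0.61 ± 0.23 (SD, n = 6) in T, and the groups overlapped. In SOL the median was 0.00 to 2 decimals (-0.0032), with 0 genes at an unadjusted p under 0.05 in either direction (3.05% of all genes higher and 1.94% lower). The smallest p was that of Ndufaf6, at 0.17 (SE 0.15, adjusted p = 0.928). In HRT the median was 0.03, and it was -0.05 without T+WBV replicate 2 and 0.10 without T+WBV replicate 3. Replicates are numbered per tissue, and the mouse of T+WBV replicate 3 in HRT was T+WBV replicate 4 in the muscles. In HRT 2 genes were higher at an unadjusted p under 0.05, against 4.30% of all genes, with Ndufb2 at 0.20 (SE 0.07, adjusted p = 0.544).

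In mice without a tumour, training left no called difference. In C+WBV against C, 0 of the 43 genes were called in EDL, SOL or HRT, as were 0 of all genes, and 0 of the 43 had an unadjusted p under 0.05. Of all genes, 1.74% in EDL, 1.5% in SOL and 1.97% in HRT were higher at that p, and 1.59%, 1.67% and 1.35% lower. The lowest p-values belonged to Ndufa7 in EDL (-0.13, SE 0.08), Ndufa4l2 in SOL (-0.16, SE 0.14) and Ndufa5 in HRT (-0.15, SE 0.08). The medians were -0.0024, -0.03 and -0.02. The interaction of tumour and training was called for 0 genes in each tissue, as it was for 0 of all genes, with 1 gene at an unadjusted p under 0.05 in EDL (Ndufaf6, 0.47, SE 0.19, adjusted p = 0.982), 0 in SOL and 1 in HRT (Ndufa3, 0.24, SE 0.10, adjusted p = 0.832). Of all genes, 1.58%, 2.73% and 3.08% were positive at that p in EDL, SOL and HRT, and 1.58%, 1.72% and 2.79% negative. The interaction lay above 0 in 42 of the 43 genes in EDL, 25 in SOL and 34 in HRT (50.7%, 46.4% and 51.5% of all genes lay below 0), with medians of 0.16, 0.01 and 0.06. These values share the T and T+WBV mice with the comparison of T+WBV against T. Without T+WBV replicate 2 the medians were 0.09 in EDL, -0.05 in SOL and -0.02 in HRT, and without T replicate 3 the median in EDL was 0.25. The intensity-based statistic called 0 in these comparisons too.

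Levels of the same gene in the C mice were then set against each other across tissues, with the mouse as a random block. SOL and EDL were close: 6 genes were called lower in SOL and 1 higher (6.44% and 7.49% of all genes). Ndufaf6 was lower in SOL by -0.74 (SE 0.13, adjusted p = 5.57e-06), with C ranges of 6.39 to 6.71 in EDL and 5.68 to 5.88 in SOL. Ndufb3, a membrane arm subunit, was the 1 gene called higher, by 0.62 (SE 0.11, adjusted p = 2.7e-05), at 7.41 to 7.59 in EDL and 8.01 to 8.28 in SOL. Neither gene's ranges overlapped, and the order held within 6 of 6 mice for each. Ndufa7 was lower in SOL by -0.39 (SE 0.10), also in 6 of 6 mice. The count was 3 without C replicate 2. The share of all genes called in that fit is not given here.

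HRT levels were higher than in the muscles for part of the list. Against EDL 12 genes were called higher and 2 lower (19.0% and 12.9% of all genes), and against SOL 18 higher and 1 lower (15.4% and 9.59%). Relative to EDL the largest differences were Ndufaf6 (-0.78, SE 0.16), Ndufaf2 (0.66, SE 0.16) and Ndufa5 (0.65, SE 0.10), an accessory subunit of the matrix arm. Relative to SOL they were Ndufaf3 (0.80, SE 0.12), Ndufaf2 (0.74, SE 0.16) and Ndufs6 (0.69, SE 0.12), a zinc-binding subunit, and the 1 gene lower in HRT was Ndufb3 (-0.51, SE 0.14). Ndufaf3 read 8.08 ± 0.05 (SD, n = 3) in HRT, 7.63 ± 0.12 (n = 6) in EDL and 7.30 ± 0.18 (n = 6) in SOL. Without C replicate 2, counted by its number in the muscles, 6 genes were called between HRT and EDL and 8 between HRT and SOL. The shares of all genes called in that fit are not given here, so these counts do not set the genes apart from others.

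Tumour bearing mice differed widely in body mass at day 19, from 75.9% to 100.9% of the starting value, and the genes were set against it in the 11 such mice with a term for training. Slopes are given per 10 percentage points of body mass. In EDL 0 genes were called (0.685% of all genes were called with a positive slope and 0.484% with a negative one), 29 had a positive slope and 1 a negative slope at an unadjusted p under 0.05 (11.2% and 8.71%), and 42 of 43 slopes were above 0 (49.5% of all genes were below) with a median of 0.22. Ndufaf7 had the smallest p, with a slope of 0.38 (SE 0.08, adjusted p = 0.0222). In SOL 0 were called (0.207% and 0.128%), 28 had a positive slope at an unadjusted p under 0.05 (8.42%), and the median slope was 0.24, with Ndufab1 first at 0.36 (SE 0.08, adjusted p = 0.0309). The slope of Ndufa7 was 0.02 (SE 0.08) in EDL and -0.12 (SE 0.12) in SOL. When T+WBV replicate 2 and T replicate 3, the 2 of these mice with the highest percent of starting body mass, were left out, the median slope was -0.05 in EDL and 0.29 in SOL, so in EDL it rested on those mice.

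**Figure D5:**
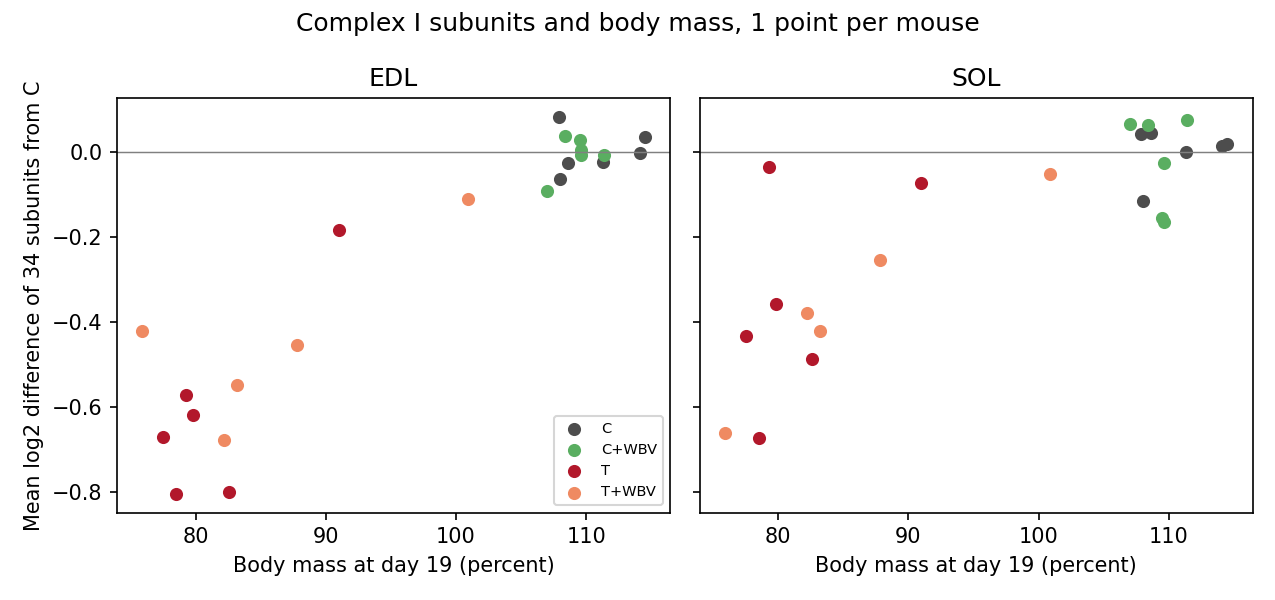
Mean log2 difference of the 34 subunits from the C mean against body mass at day 19 (percent of the starting value), 1 point per mouse, in EDL (left) and SOL (right). The T+WBV mouse at 100.9% and the T mouse at 91.0% stand apart from the other 9 tumour bearing mice in EDL, at -0.11 and -0.18.

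The subunits varied together from mouse to mouse more closely with a tumour than without. As a description, the median Pearson correlation between pairs of subunits over the 11 tumour bearing mice was 0.83 in EDL and 0.83 in SOL, and over the 12 mice without a tumour it was 0.32 and 0.35. The correlations pool the trained and untrained mice of each kind, and each point shares an array. Ndufa7 had the lowest median correlation with the other subunits in tumour bearing mice, at 0.04 in both muscles.

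Genes of related function were counted from fixed lists in T against C. Of all genes, 11.6% were called lower in EDL, 8.66% in SOL and 3.04% in HRT, and 10.7%, 5.06% and 2.7% higher. Of 11 further complex I assembly genes, 6 were called lower in EDL, 4 in SOL and 2 in HRT, and 0 higher. Tmem126b, a membrane arm assembly factor, was called in each tissue, at -0.71 (SE 0.12) in EDL, -0.51 (SE 0.13) in SOL and -0.49 (SE 0.10) in HRT. Of 39 genes of complexes II to V, 34 were called lower in EDL, 12 in SOL and 7 in HRT, with medians of -0.51, -0.27 and -0.16, so calls were not confined to complex I. Of 8 mitochondrial content markers 4 were called lower in EDL (median -0.24), and in SOL 2 were called lower and 1 higher (median -0.27). In HRT the mean level of these 8 markers ranged from 10.23 to 10.31 in C and from 10.11 to 10.16 in T, without overlap. Taken singly, 16.3% of all genes had every T heart below every C heart.

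Transcriptional regulators of respiratory genes moved both ways. Of 11 measured, 4 were called lower and 3 higher in EDL, 1 lower in SOL and 0 in HRT. The coactivator gene Ppargc1b was lower by -1.52 (SE 0.23, adjusted p = 2.31e-05) in EDL and by -1.71 (SE 0.26, adjusted p = 4.52e-05) in SOL. Its relative Ppargc1a, a coactivator known for inducing mitochondrial genes, was higher in EDL by 0.67 (SE 0.18, adjusted p = 0.00645), and in the same muscle Esrra, the gene of an oestrogen-related receptor, was lower by -0.71 (SE 0.11, adjusted p = 4.01e-05).

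Markers of other cell types moved in the same comparisons. The mean level of 7 neutrophil markers ranged from 3.16 to 3.52 in C and from 3.49 to 4.75 in T in EDL, from 3.16 to 3.41 and from 3.90 to 4.82 in SOL, and from 3.29 to 3.79 and from 4.64 to 5.43 in HRT, with 3, 5 and 4 of the 7 called higher. That of 5 fibroblast markers ranged from 8.60 to 9.25 in C and from 6.93 to 8.66 in T in EDL, and from 8.95 to 9.52 and from 6.96 to 8.72 in SOL, with 3 and 4 of 5 called lower. In HRT the fibroblast markers lay the other way, from 9.01 to 9.11 in C and from 9.12 to 9.36 in T, with 2 of 5 called higher. Of 8 macrophage markers 3 were called higher in EDL, 0 in SOL and 5 in HRT, and of 9 fast fibre markers 4 were called lower in EDL and 3 in SOL. Further lists lay lower in the T hearts without overlap, though 0 of their genes were called there. The mean of 7 adipocyte markers ranged from 6.39 to 7.32 in C and from 5.34 to 6.10 in T, that of 2 erythroid markers from 6.75 to 7.54 and from 5.15 to 6.56, and that of the 7 heart markers from 12.06 to 12.17 and from 11.81 to 11.99. At an unadjusted p under 0.05 (limma) 5, 2 and 3 of them were lower, as were 14% of all genes. Every T heart lay below every C heart in 16.3% of all genes, taken singly. In the T+WBV hearts the erythroid markers ranged from 7.37 to 8.13, so they were not lower there. The adipocyte and heart markers in those hearts ranged from 5.29 to 6.09 and from 11.81 to 11.92. In the muscles the C and T ranges of the adipocyte and erythroid lists overlapped. The part of these lists in the Nduf values was not tested.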

How the data were processed

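RNA from EDL, SOL and HRT was hybridised to Affymetrix Mouse Gene 1.1 ST arrays. The deposited values are log2 intensities that the authors normalised by RMA (background correction, quantile normalisation and summary per probe set), with 1 mouse per array. The methods describe a custom probe annotation, whereas the deposited table holds the probe sets of the array itself. Array precision is limited by the number of arrays.

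Of 35556 probe sets, 21218 carried 1 symbol and were averaged per symbol to 18820 genes. Of the 43 genes described, 7 had 2 probe sets, and those of Ndufb5 disagreed in EDL (-0.69 for the brighter and -0.20 for the dim one). Probe sets shared by several symbols were not used. In T against C the one shared by Morn5 and Ndufa8 stood at -0.14 in EDL and -0.05 in SOL, where Ndufa8 itself stood at -0.58 and -0.61. The one shared by Ndufs5 and Ndufs5-ps stood at -0.55 and -0.21, where Ndufs5 itself stood at -0.58 and -0.33. Groups were compared with limma 3.58.1 (R 4.3.3; lmFit and eBayes with trend) per tissue, all 4 groups in the fit, with Benjamini-Hochberg adjustment over all genes and a threshold of 0.01. Comparisons between tissues used all 58 arrays with the mouse as a random block (correlation 0.137). Genes were named by rule: the 4 largest called differences per tissue, the core subunits by range, each assembly factor, Ndufa4 and Ndufa4l2, the smallest p in each training or body mass comparison, and the 3 largest tissue differences. Ndufa7, Ndufb9, Ndufb11 and the further examples were chosen after their values were seen. The genes and lists were chosen with earlier results of these data known. The tests were tested on simulated data. Alternatives changed the variance prior, the statistic, the arrays in the fit, the normalisation, the filter, the probe set rule, the replicate block and the mice included. Promoter windows were from RefSeq (GRCm38.p6).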

Additional observations from a re-analysis of the deposited data

Results flagged for a closer look

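Single arrays stood apart from their group in 24 of 344 groups of gene, tissue and condition in EDL and SOL, judged by the gap to the nearest array over the range of the group. Chance gives about 5% of groups if each is independent, and the count was not far above that. These groups are not independent. Subunits varied together (median correlation 0.83 in tumour bearing EDL), and 10 of the 24 cases came from 1 array. The HRT groups, of 3 arrays each, were not tested. In EDL, T replicate 3 (body mass 91.0%) was the highest of its group in 10 genes, with ratios of 0.672 for Ndufa11, 0.632 for Ndufab1, 0.836 for Ndufaf1, 0.702 for Ndufaf5, 0.705 for Ndufaf6, 0.665 for Ndufb6, 0.722 for Ndufb7, 0.718 for Ndufc1, 0.6254 for Ndufs5 and 0.674 for Ndufv2. T+WBV replicate 2 (body mass 100.9%) was the highest in EDL in 4 genes, with 0.801 for Ndufa4, 0.77 for Ndufb5, 0.767 for Ndufb6 and 0.819 for Ndufv3.

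Among the controls, C replicate 2 was the lowest of its group in SOL in 5 genes, with 0.631 for Ndufa2, 0.753 for Ndufa4l2, 0.834 for Ndufs3, 0.681 for Ndufs7 and 0.66 for Ndufs8. The other 5 cases were Ndufa11 (C+WBV replicate 4 lowest in EDL, 0.746), Ndufa9 (C+WBV replicate 6 lowest in EDL, 0.867), Ndufa6 and Ndufc1 (C replicate 6 highest in EDL, 0.788 and 0.678) and Ndufa6 (T replicate 1 highest in SOL, 0.653).

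The difference of T from C was tested between tissues, and for Ndufb9 it was 0.322 higher on the log2 scale in HRT than in EDL, the 1 gene that passed.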

How the results depend on the processing

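Of 3118 repeats of 181 results for single genes, 2625 kept their direction and side of the threshold, 488 lost the call, 5 gained it and 0 changed direction. In T against C, 36 of the 39 calls in EDL held under every alternative, 10 of 16 in SOL and 0 of 7 in HRT. The cause of the shifts below was not tested. Shares of all genes are not given beside the counts below, so those counts do not set these genes apart from others.

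In 1 fit of all 58 arrays the counts were 29 for T against C in SOL, 0 in HRT, 23 for T+WBV against C in SOL and 17 for T+WBV against C+WBV in SOL. A second quantile normalisation gave 10 in SOL and 4 in HRT for T against C. Among genes above the median level, which are fewer, T against C in HRT gave 13, T+WBV against C gave 12 in SOL and 1 in HRT, T+WBV against C+WBV in SOL gave 7, and the tissue differences of the tumour effect gave 2 for SOL minus EDL and 2 for HRT minus EDL. With 1 prior variance the counts were 1 for T against C in HRT, 2 for T+WBV against C+WBV in SOL and 0 for HRT minus EDL. The probe set with the highest mean gave 1 for SOL minus EDL, no mouse block gave 0 for HRT minus EDL, and a term for arrays labelled with the suffix _2 gave 1 for T+WBV against C+WBV in SOL. The slope in EDL without the group term gave 1.

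Replicate numbers did not pair mice (mean correlation of same-numbered arrays -0.0019 in EDL, 0.01 in SOL and -0.03 in HRT). With the replicate block, the counts were 37, 11 and 5 for T against C in EDL, SOL and HRT, 2 for T+WBV against C and 1 for T+WBV against C+WBV in SOL, 9 for HRT against EDL, 11 for HRT against SOL and 0 for HRT minus EDL.

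Leaving out 1 mouse at a time gave, for T against C, 37 to 41 calls in EDL. The range was 10 to 21 in SOL, and it was 2 to 3 in HRT. For T+WBV against C the ranges were 13 to 36, 1 to 19 and 0 to 23, and for T+WBV against C+WBV 16 to 35, 0 to 13 and 0 to 20. They were 3 to 6 for SOL against EDL, 6 to 14 for HRT against EDL and 8 to 16 for HRT against SOL, 0 to 3 for SOL minus EDL and 0 to 6 for HRT minus EDL (the highest of both without T replicate 3), and 0 to 1 for the slope in SOL (1 without T replicate 1). For both training comparisons, the interaction, HRT minus SOL and the slope in EDL it stayed 0.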
